A study of Mus musculus with 4 samples.

Results

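Chromatin accessibility near 10 inflammatory genes was compared between mouse fibroblasts with and without Ranbp2. The genes were the secreted cytokines Il6, Ccl2, Cxcl1 and Lif, the NF-kB subunits Nfkb1, Nfkb2, Rela and Relb, and the feedback inhibitors Nfkbia and Tnfaip3. Peaks were taken when their summit lay inside the RefSeq span of a gene or within 50 kb of it, and overlapping peaks of the 4 libraries were joined into 1 site. This gave 69 sites out of 39137 in all. The assay was ATAC-seq, in which a transposase cuts open DNA and leaves sequencing adapters there. The cells were 10T1/2, a mouse embryonic fibroblast line, in 2 wild-type libraries and 2 libraries carrying a Ranbp2 knockout, each made from 50000 cells. The knockout was a single selected clone made with 1 CRISPR-Cas9 guide, so that effects of the clone and of the lost protein cannot be told apart. No stimulus is named in the labels for any library, and both genotypes share the line, medium and protocol.

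RANBP2 is a nucleoporin on the cytoplasmic side of the nuclear pore. NF-kB is a family of dimeric transcription factors that wait in the cytoplasm bound to inhibitors of the IkB type and pass through the pore after signals such as TNF or interleukin-1. In the nucleus they bind short GC-flanked motifs and raise genes for cytokines and chemokines. They also raise their own inhibitors, which ends the response. Fibroblasts are a tissue source of interleukin-6, of the chemokines made by Ccl2 and Cxcl1, and of LIF.

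The 4 libraries had between 13877 and 33721 peaks, the longest list being wild-type replicate 1 (33721) and the shortest knockout replicate 1 (13877). The lists of wild-type replicate 2 and knockout replicate 2 held 18511 and 24292 peaks. The files give no read counts, so depth is unknown, and a site missing from a list may only have missed that list's threshold. Each peak is described by the authors' fold enrichment over the local background of its own library and by its rank percentile, the percentile of its −log10 q within its own list, where 100 is the strongest peak. Percentiles from lists of unequal length are set side by side below as a description, since a shared site gets a higher percentile in a longer list. Over the 10977 sites found in all 4 lists the median percentile was 83.1 and 69.0 in the wild-type lists and 59.0 and 76.8 in the knockout lists. The median fold over all peaks of a list was 7.72 and 8.92 in wild-type and 7.28 and 6.78 in knockout libraries. A lower knockout fold at a single site is therefore not by itself set apart from its whole list, and folds are also ranked within each list below. No p-values are given, because 2 libraries against 2 cannot reach an exact two-sided permutation p below 0.333, and nothing in the labels says whether replicates were separate cultures. Of 11 fibroblast markers, 8 had a peak at a gene end in at least 1 library, against 43.4% of all protein-coding genes. Col1a2, Vim and Fn1 had one in all 4 libraries, as did 26.4% of all genes, and Pdgfra, Dcn and Lum had none. Of 10 macrophage and other immune markers only Spi1 and Cd68 had a gene-end peak, each in 1 library. The 5 endothelial and 6 epithelial markers had none in any library, as was true of 56.6% of all genes.

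Open sites were found near every member, but their number and place varied from gene to gene. Nfkbia had 13 sites in its window and Lif 12, Rela 9, Nfkb2 and Relb 7 each, Ccl2 6, Tnfaip3 5, Cxcl1 4, and Il6 and Nfkb1 3 each. Their median of 6.5 compares with a median of 3 over 21887 protein-coding genes (quartiles 1 and 6), and 4.09% of all genes had at least 12 sites. Of the 69 sites, 10 lay at a gene end of the member itself, meaning within 1 kb of either end of its span, 8 lay further inside the gene and 51 outside it. Of the 59 sites away from the member's own ends, 11 lay at the end of another protein-coding gene. A peak in all 4 libraries was found at 5 of the 10 gene-end sites and at 12 of the 59 others, 17 of 69 together, while 28.0% of all 39137 sites had a peak in all 4.

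**Figure D1:**
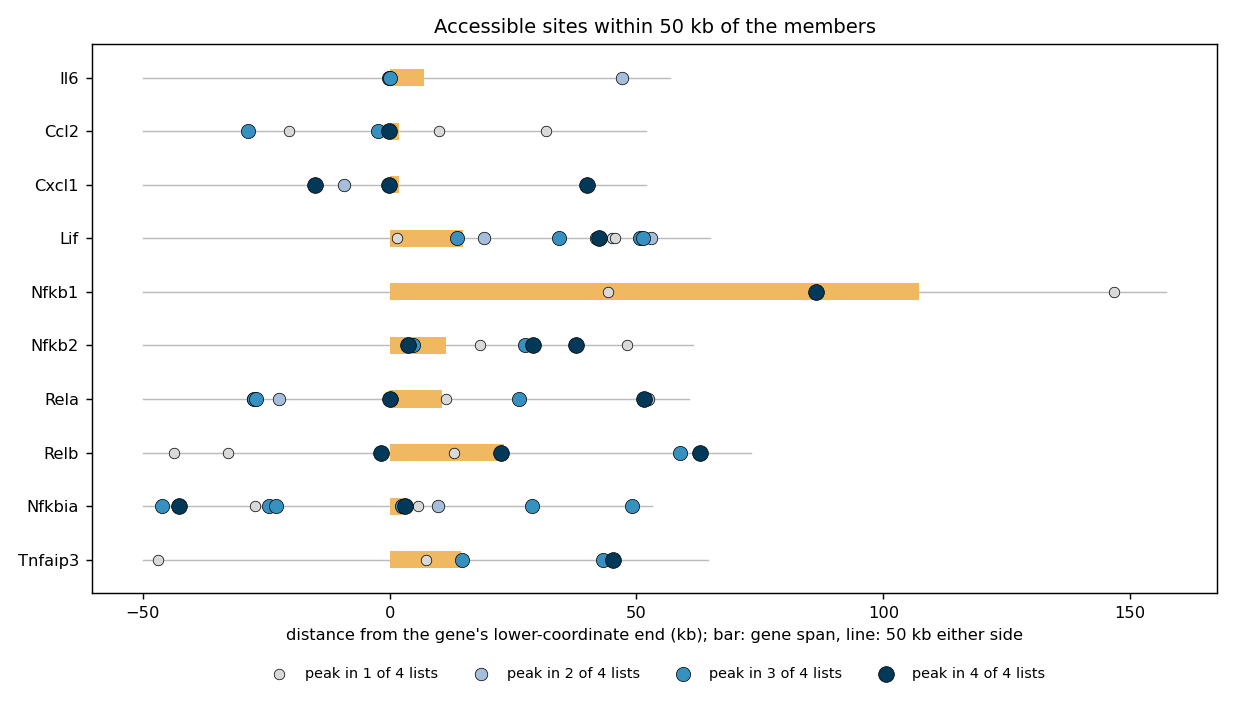
Sites near the 10 members, plotted by the distance of the summit in kb from the lower-coordinate end of the gene span (bar), with a line for the 50 kb on either side. Darker and larger points had a peak in more of the 4 lists. Il6, Ccl2, Cxcl1 and Rela have sites at the left edge of the bar, whereas the only site of Nfkb1 found in all 4 lists lies inside the gene.

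Gene-end peaks were called for 7 of the 10 members in at least 1 library, and for 43.4% of all 21887 protein-coding genes. All 7 (Il6, Ccl2, Cxcl1, Rela, Relb, Nfkbia and Tnfaip3) had such a peak in both wild-type libraries and in knockout replicate 2, and Ccl2, Cxcl1, Rela, Relb and Nfkbia also had it in knockout replicate 1. Over all protein-coding genes, 26.4% had a gene-end peak in all 4 libraries. Lif, Nfkb1 and Nfkb2 had none in any library. The 3 starts that RefSeq gives for Nfkb2 lie further inside its span, and 2 of them were covered by a site each.

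Il6 (gene 16193, chromosome 5, 30013114-30019975, plus strand) encodes interleukin-6. Narrow peaks stood on each side of its start, with summits 203 bp upstream and 155 bp downstream. The upstream site (30012786-30013012) had rank percentiles of 73.6 and 57.9 in the wild-type libraries and 54.2 in knockout replicate 2, at folds of 11.7, 10.1 and 7.95. The downstream site (30013203-30013348) had percentiles of 71.4, 67.4 and 73.1 in the same libraries, at folds of 11.2, 11.7 and 11.1. Knockout replicate 1 had neither peak, so the site pair was open in 1 of 2 knockout libraries and could not be compared by rank. The third site of the gene, 40.12 kb beyond its far end (30060036-30060183), was called in wild-type replicate 1 and knockout replicate 1 only.

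The promoter sequence of Il6 is shown because the motif best known for NF-kB at this gene lies between the peaks rather than under them. Promoters are given as the 300 bases from 250 before to 50 after the start, from RefSeq (GRCm38.p6, the coordinates of mm10), on the strand of the gene. Capitals mark matches to any of 6 motifs searched on both strands. These were NF-kB by its consensus, AP-1 (TGANTCA), CRE (TGACGTCA), a C/EBP-like pattern (TTGCNNNAA), Sp (GGGCGG) and the TATA box (TATAAA). The C/EBP-like pattern differs in spacing from the usual C/EBP consensus, so unmarked stretches may still fit that consensus. A match is a description of the letters and not evidence of binding.

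Il6 promoter, chr5:30012864-30013163, plus strand: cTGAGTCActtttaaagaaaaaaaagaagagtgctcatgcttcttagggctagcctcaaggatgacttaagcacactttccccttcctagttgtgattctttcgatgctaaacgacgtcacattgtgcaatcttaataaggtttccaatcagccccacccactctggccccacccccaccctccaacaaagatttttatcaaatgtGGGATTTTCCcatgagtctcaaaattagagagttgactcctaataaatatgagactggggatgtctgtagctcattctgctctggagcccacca

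The NF-kB match of Il6, GGGATTTTCC at 30013070-30013079, began 44 bp before the start and lay inside a peak in 0 of 4 libraries. The AP-1 match, TGAGTCA, began 249 bp before the start, under the upstream peak in the 3 libraries that had it.

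Ccl2 (gene 20296, chromosome 11, 82035577-82037452) encodes the monocyte chemoattractant MCP-1. Its gene-end site (82035342-82035612, summit 81 bp below the span) had a peak in every library, with percentiles of 82.0 and 67.4 in wild-type and 74.1 and 73.4 in knockout cells. Folds were 12.2 and 10.3 against 9.58 and 8.51. The knockout percentiles lay between the wild-type ones, and the means of 74.7 and 73.7 differed by less than the wild-type replicates did from each other. A weaker site 2.42 kb below the gene (82033024-82033232) was present in both knockout libraries at percentiles of 10.5 and 57.0 and in wild-type replicate 1 at 45.4. A further site at an end of Ccl7, the neighbouring chemokine gene, was called in wild-type replicate 1 alone.

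Cxcl1 (gene 14825, chromosome 5, 90891245-90893121, plus strand) encodes a chemokine that attracts neutrophils. The site over its start (90890905-90891518, summit 82 bp upstream) was open in all 4 libraries. Its percentiles were 75.0 and 55.1 in wild-type and 40.4 and 78.0 in knockout libraries, at folds of 12.6 and 10.4 against 7.36 and 10.97. The knockout percentiles enclosed the wild-type ones, and the folds overlapped too. An upstream site 15.05 kb away (90876120-90876366) was the strongest distal site of the gene, with percentiles of 79.5 and 72.3 in wild-type and 65.2 and 71.1 in knockout libraries. There both knockout values lay below both wild-type values, though the nearest values of the genotypes were only 71.1 and 72.3. A weak site 9.32 kb upstream (90881822-90881992) was present in both wild-type libraries, at percentiles of 39.1 and 14.1, and in neither knockout library. The Cxcl1 promoter is shown as the case in which an NF-kB match was covered by a peak in every library.

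Cxcl1 promoter, chr5:90890995-90891294, plus strand: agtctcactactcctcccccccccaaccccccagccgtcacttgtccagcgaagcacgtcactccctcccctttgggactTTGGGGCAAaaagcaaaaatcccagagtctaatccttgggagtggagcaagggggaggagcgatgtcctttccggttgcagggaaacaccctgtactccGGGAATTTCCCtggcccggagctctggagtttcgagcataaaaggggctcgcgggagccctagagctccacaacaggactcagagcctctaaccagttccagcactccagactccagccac

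A pair of NF-kB matches that overlap by all but 1 base, GGGAATTTCC and GGAATTTCCC, began 71 and 70 bp before the start and lay inside the peak in 4 of 4 libraries. The match to the C/EBP-like pattern further upstream lay inside it in 3.

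Lif (gene 16878, chromosome 11, 4257568-4272514, plus strand) encodes leukemia inhibitory factor, a cytokine of the interleukin-6 family. No library had a peak over its promoter sequence, and the nearest site, 1447 bp downstream of the start, was called in wild-type replicate 1 alone (percentile 22.5). Most of its 12 sites lay beyond the far end of the gene, between 4.11 and 38.03 kb from it. The only site in all 4 libraries lay 27.43 kb beyond that end (4299788-4300032), with percentiles of 73.5 and 77.4 in wild-type and 33.2 and 61.3 in knockout libraries and folds of 9.002 and 11.2 against 5.94 and 6.90. Both knockout percentiles and both knockout folds were below the wild-type ones there, though median folds of the whole lists were lower in knockout libraries as well. A neighbouring site at 4299397-4299506 was present in both wild-type libraries (percentiles 36.0 and 41.7) and in neither knockout library. A stronger site 19.38 kb beyond the end (4291695-4292005) was present in 3 libraries at 82.0, 70.5 and 66.0 and had no peak in knockout replicate 1. In all, knockout replicate 1 had a peak at 1 of the 12 Lif sites, knockout replicate 2 at 7, and the wild-type libraries at 12 and 6.

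Among the subunits, Relb and Nfkb2 had the highest-ranked sites of any member at a gene end or annotated start. Relb (gene 19698, chromosome 7, 19606217-19629438), the subunit of the slower non-canonical pathway, had a gene-end site at 19628416-19628935 with percentiles of 94.3 and 88.8 in wild-type and 92.5 and 96.2 in knockout libraries. Folds were 16.9 and 14.5 against 12.6 and 15.0. By whole-list rank the genotypes overlapped, with a difference of means of 2.79 points, knockout being higher. In the 4 other rankings described below both knockout values were above both wild-type values, by 3.12 to 9.19 points between means. Its strongest distal site, 1.68 kb below the span, lay 19 bp from an end of Clasrp and had percentiles of 83.9 and 57.4 against 77.6 and 68.7.

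Nfkb2 (gene 18034, chromosome 19, 46300994-46312400, plus strand) encodes p100, the precursor of the partner of RelB. The site over its start at 46304737 (46304249-46304855, summit 110 bp upstream) ranked at percentiles of 93.0 and 92.8 in wild-type and 79.7 and 88.8 in knockout libraries. Folds were 15.5 and 16.3 in wild-type and 9.70 and 11.4 in knockout libraries, so the genotypes did not overlap on either scale. The median folds of the whole lists were lower in both knockout libraries too. A weaker site at 46305602-46305754, over the start at 46305695, had percentiles of 58.9 and 39.9 in wild-type libraries and 34.8 in knockout replicate 2, and no peak in knockout replicate 1. The promoter is shown because its NF-kB matches sit next to the start within a site that ranked lower in both knockout libraries.

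Nfkb2 promoter, chr19:46304487-46304786, plus strand: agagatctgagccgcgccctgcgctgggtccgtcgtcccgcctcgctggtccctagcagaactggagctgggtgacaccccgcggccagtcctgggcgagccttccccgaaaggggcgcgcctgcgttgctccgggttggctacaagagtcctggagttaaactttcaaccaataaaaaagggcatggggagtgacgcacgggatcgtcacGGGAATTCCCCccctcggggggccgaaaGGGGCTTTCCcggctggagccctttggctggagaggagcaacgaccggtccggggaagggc

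The matches GGGAATTCCC and GGAATTCCCC, which overlap, began 39 and 38 bp before the start, and GGGGCTTTCC began 11 bp before it. All lay inside the peak in both wild-type libraries and knockout replicate 2. In knockout replicate 1 the peak covered 209 of the 300 bases and stopped before them.

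Rela (gene 19697, chromosome 19, 5637442-5648134, plus strand) encodes p65, the main activating subunit. The site at its start (5637262-5637516) had percentiles of 81.3 and 79.4 in wild-type and 41.1 and 78.1 in knockout libraries, at folds of 13.3 and 13.3 against 6.70 and 10.2. Both knockout percentiles were below both wild-type ones, though not with lists of equal length, and most of the difference of means, -20.8 points, came from knockout replicate 1. Without that library the difference was -2.26 points. A second gene-end site, 733 bp beyond the far end (5648808-5648982), was called in wild-type replicate 1 alone, at percentile 47.5. The window of Rela also held the strongest distal site of the list, at an end of Pcnx3 40.84 kb away (5688642-5689121). Its percentiles were 98.1 and 96.6 in wild-type and 89.4 and 96.3 in knockout libraries. A neighbouring site at the same gene (5689612-5689791) and another at 5615032-5615313, nearest to Kat5, were present in both wild-type libraries and neither knockout library. The Rela promoter is shown for contrast, since Rela was the only one of the 7 members with a RefSeq promoter that had no NF-kB match.

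Rela promoter, chr19:5637291-5637590, plus strand: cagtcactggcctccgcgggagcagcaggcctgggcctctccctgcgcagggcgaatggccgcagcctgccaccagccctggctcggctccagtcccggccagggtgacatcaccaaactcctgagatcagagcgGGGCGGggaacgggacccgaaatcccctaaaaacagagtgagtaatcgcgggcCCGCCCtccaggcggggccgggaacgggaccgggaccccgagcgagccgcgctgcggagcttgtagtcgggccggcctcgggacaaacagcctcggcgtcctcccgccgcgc

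It held 2 Sp matches, beginning 115 and 62 bp before the start at 5637541. The former lay inside the peak in 4 libraries and the latter in 3.

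Nfkb1 (gene 18033, chromosome 3, 135584655-135691969) encodes p105, the precursor of p50. Its only site in all 4 libraries lay inside the gene, 20.94 kb from the nearest end (135670907-135671214), with percentiles of 79.9 and 58.0 in wild-type and 42.5 and 59.0 in knockout libraries. The genotypes overlapped there by whole-list rank, and knockout was lower in the 4 other rankings described below. The other 2 sites, inside the gene and 39.47 kb outside it, were called in wild-type replicate 1 alone. Actb, a gene active in nearly every cell, also had no gene-end peak in any library, so a missing call at the ends of a span is no sign of a closed gene.

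In each library that had a peak there, the gene-end sites of the inhibitors ranked below the Relb gene end, the Rela start and the stronger Nfkb2 start. They ranked above the second Rela gene-end site in the only library that had it. Nfkbia (gene 18035, chromosome 12, 55489409-55492647, minus strand) encodes IkB-alpha, which holds NF-kB in the cytoplasm. The site over its start (55492410-55492786) had percentiles of 61.5 and 41.2 in wild-type and 23.3 and 64.2 in knockout libraries, at folds of 8.31 and 8.02 against 5.72 and 7.40. The replicates of each genotype lay further apart than the genotype means, 51.4 and 43.8. A site 719 bp inside the gene (55491885-55492083) was called in the other 3 libraries at 63.6, 37.0 and 68.4. Of its distal sites, the one 42.58 kb beyond the far end (55446736-55447060) was the strongest, at percentiles of 73.9 and 70.5 against 60.7 and 77.4. The highest value of any Nfkbia site in a single library was 85.6, in knockout replicate 2 at 55443251-55443462, where the wild-type libraries had 59.7 and 40.8 and knockout replicate 1 had no peak.

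Nfkbia promoter, chr12:55492598-55492897, minus strand, shown because in 2 libraries the peak over the start ends before or within its NF-kB match: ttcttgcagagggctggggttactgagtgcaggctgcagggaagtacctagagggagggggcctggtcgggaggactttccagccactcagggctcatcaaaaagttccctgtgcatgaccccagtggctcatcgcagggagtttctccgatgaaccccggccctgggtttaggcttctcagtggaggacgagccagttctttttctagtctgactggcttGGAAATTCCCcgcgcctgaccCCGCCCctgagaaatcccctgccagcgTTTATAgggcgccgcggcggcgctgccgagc

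The NF-kB match GGAAATTCCC began 29 bp before the start and was fully inside the peak in wild-type replicate 1 and knockout replicate 2, and not in the other 2 libraries. The Sp match, 8 bp before the start, was inside it in all 4.

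Tnfaip3 (gene 21929, chromosome 10, 19000910-19015410, minus strand) encodes A20, a ubiquitin-editing enzyme that shuts off NF-kB signalling. Its start site (19015330-19015608) was among the weakest gene-end sites of the members, with percentiles of 51.4 and 33.8 in wild-type libraries and 19.0 in knockout replicate 2. Folds were 8.48, 7.82 and 5.53. Knockout replicate 1 had no peak there, and the single knockout value was below both wild-type values. An upstream site 30.79 kb from the start (19046060-19046315) was stronger and was found in all 4 libraries, at 78.8 and 68.2 against 51.0 and 74.1. The Tnfaip3 promoter is shown as the one with the most motif matches.

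Tnfaip3 promoter, chr10:19015361-19015660, minus strand: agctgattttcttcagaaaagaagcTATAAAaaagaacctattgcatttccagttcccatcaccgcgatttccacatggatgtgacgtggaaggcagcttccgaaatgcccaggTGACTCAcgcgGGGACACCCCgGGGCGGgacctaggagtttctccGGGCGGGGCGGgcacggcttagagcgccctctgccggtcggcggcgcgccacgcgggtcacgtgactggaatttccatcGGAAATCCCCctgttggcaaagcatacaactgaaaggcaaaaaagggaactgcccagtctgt

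The AP-1 match, the NF-kB matches that began 125 and 12 bp before the start and the Sp matches were inside the peak in the 3 libraries that had one. The 7 members with a promoter in the RefSeq table had 10 windows, some of them overlapping. An NF-kB match was found in 8 of the 10 windows, from 6 genes, and in 8.46% of all 32851 promoters of the same length. AP-1 was matched in 4 windows (7.81% of all promoters), Sp in 5 (35.7%) and the TATA box in 2 (13.6%). The C/EBP-like pattern was matched in 1 (9.56%) and CRE in 0 (1.79%). No promoter is printed for Ccl2, Nfkb1 and Relb. Of the 7 genes, 4 had a site of all 4 lists over a promoter window and only Lif had no site there, where the shares over 17492 protein-coding genes were 26.6% and 57.8%.

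**Figure D2:**
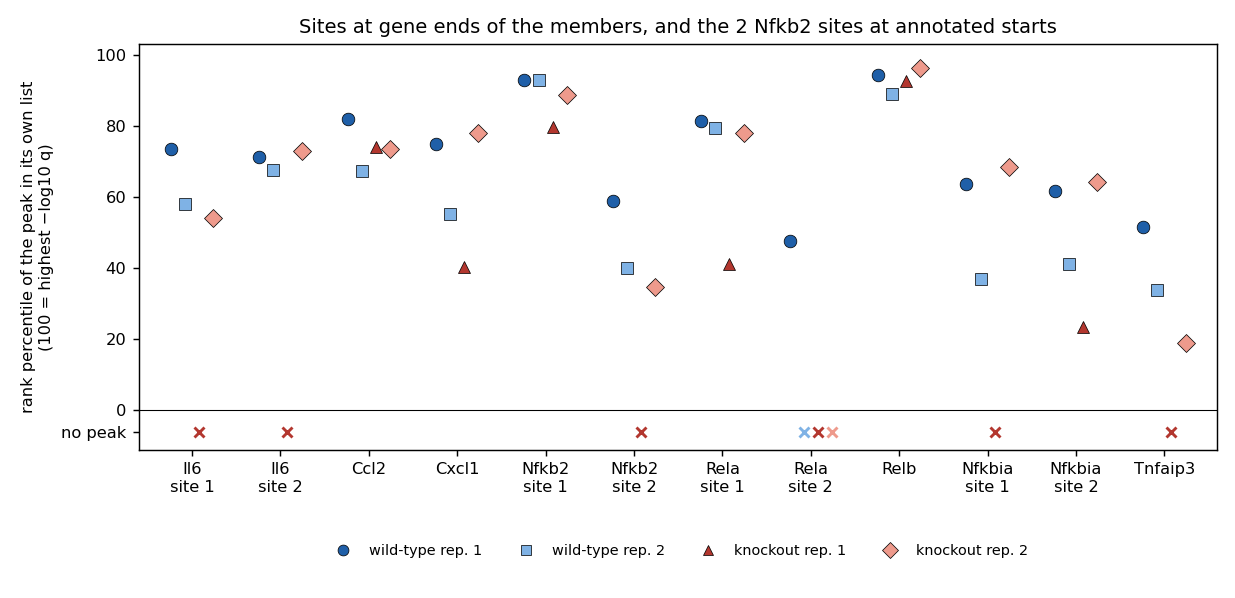
Rank percentile of each gene-end site, and of the Nfkb2 sites at annotated starts, in each library (vertical axis, 100 is the highest −log10 q of the list). Crosses in the strip at the bottom mark libraries without a peak. Knockout replicate 1 has no peak at 5 of the 10 gene-end sites, and the Relb site is high in all 4 libraries.

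In the comparison of genotypes, sites with a peak in both wild-type libraries and neither knockout library were few. Sites with a peak in both knockout libraries and neither wild-type library were not found in the lists as deposited. A peak in the 2 wild-type libraries and no knockout library was found at 4 of 69 sites, 1 of Cxcl1, 1 of Lif and 2 of Rela, none of them at a gene end of a member, against 6.52% of all sites. The reverse was found at 0 of 69 sites, against 0.953% of all. No peak in knockout replicate 1, the shortest list, was found at 47 of the 69 sites (68.1%), a share near the 64.9% of all sites. A peak in every library but that one was found at 20 sites (29.0%), against 10.4% of all sites. Of these 20, 8 ranked within the best 13877 peaks of each of the other 3 lists, as did 28.6% of all such sites. In all, 21 sites were called in a single library, against 40.9% of all sites. Of them, 17 (24.6% of the 69) were called in wild-type replicate 1, against 28.2%, and the others in 1 knockout library each.

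**Figure D3:**
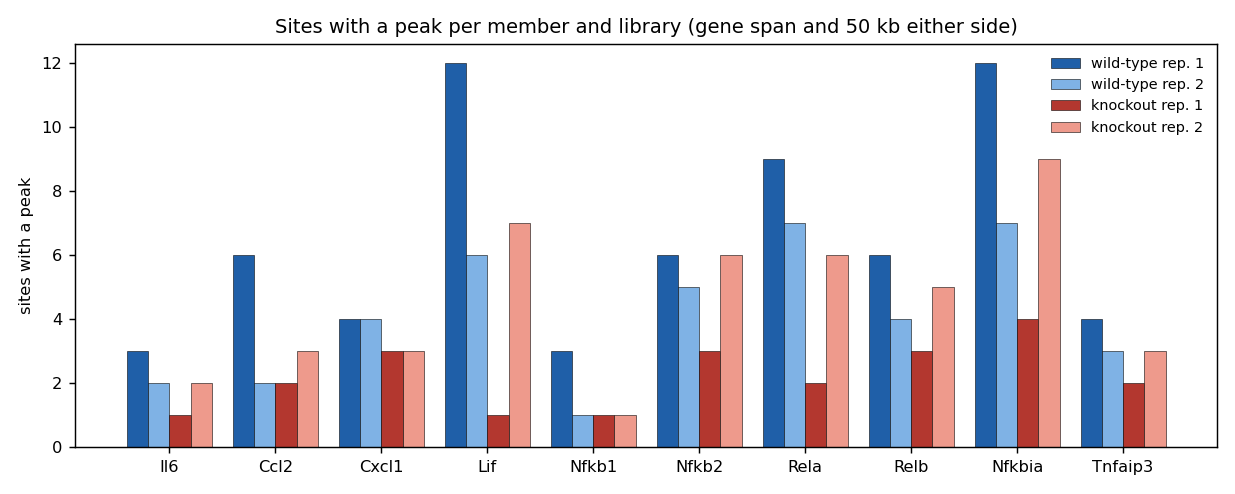
Number of sites with a peak in the window of each member, by library. The bar of knockout replicate 1 is the lowest or tied lowest at all 10 genes, and at Lif it stands at 1 against 12, 6 and 7.

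List length was then made equal by keeping the 13877 peaks of highest −log10 q in every list. Of the 44 member sites left, 15 had a peak in all 4 libraries (44.9% of all sites at that length), 6 in the wild-type pair only (6.20% of all sites) and 2 in the knockout pair only (5.23%). The 6 were 3 sites of Lif, both wild-type-only sites of Rela and the weaker Nfkb2 start. In the full lists those Lif sites and that Nfkb2 start had a peak in knockout replicate 2, and the Lif site named above as wild-type-only was not among them. The 2 were the Ccl2 site 2.42 kb below the gene, at percentiles of 10.5 and 24.7 of the shortened knockout lists, and the Nfkbia site at 55538451-55538599, at 43.6 and 42.3. Both had a peak in wild-type replicate 1 in the full lists, at 45.4 and 38.5.

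Ranks were compared at the 17 sites with a peak in all 4 libraries. Both knockout percentiles lay below both wild-type percentiles at 5 of them, and above at 0, where the shares over all 10977 such sites were 25.5% and 7.07%. The 5 were the starts of Nfkb2 and Rela, the Cxcl1 site 15.05 kb upstream, the Lif site 27.43 kb beyond the gene and the Pcnx3 end in the window of Rela. The median difference of means over the 17 was -7.61 points, and -5.67 points over all sites in 4 lists. The split between lower and higher depended on how the lists were ranked. Ranked only among the 10977 shared sites, an alternative added after seeing the data, 4 member sites were lower (25.0% of all) and 1 higher (22.7%). With equal lists 4 were lower (25.0%) and 3 higher (21.1%). By all 3 rankings the same 3 sites stayed lower, those of Lif, the Nfkb2 start and the Pcnx3 end, with differences among shared sites of -21.9, -8.26 and -4.81 points. The first 2 also stayed lower when ranked by fold and within their own chromosome. The Nfkb1 site inside the gene overlapped by whole-list rank but was lower in the other 4 rankings, at -12.4 points among shared sites. The Rela start and the Cxcl1 site 15.05 kb upstream overlapped with equal lists and among shared sites. Ranked by fold within each list, 5 member sites were lower (24.3% of all) and 2 higher (8.03%). Compared only within pairs of libraries with the same replicate number, 5 were lower (27.5%) and 0 higher (8.19%). The Relb gene end overlapped by whole-list rank and was higher in the other 4 rankings, at 82.7 and 81.3 in wild-type and 90.6 and 91.8 in knockout libraries among shared sites. The counts rest on 17 sites or fewer, and the shares of lower sites lie near those of all sites.

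**Figure D4:**
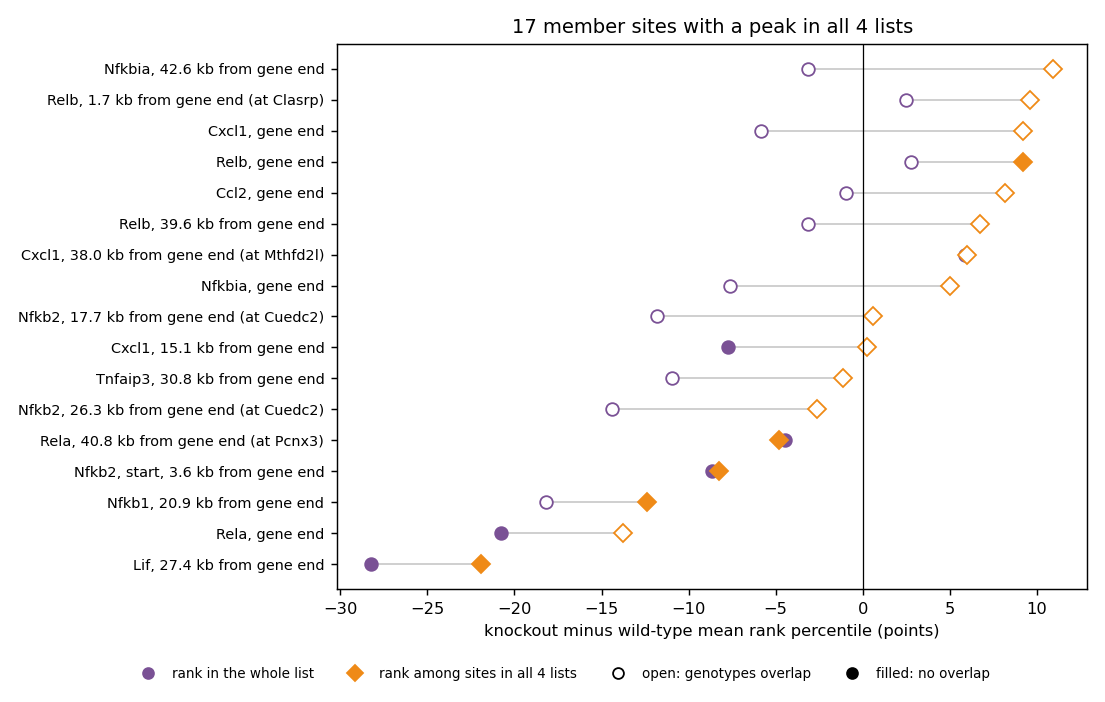
Difference of the mean rank percentile, knockout minus wild-type, at the 17 sites with a peak in all 4 lists, ranked in the whole list (circles) or among shared sites only (diamonds). Filled symbols mark sites where the genotypes did not overlap. The Lif site 27.43 kb beyond the gene lies furthest left by both rankings, and the Relb gene end is the only filled symbol to the right of 0.

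Chromosomes differed in the same measure. Over all shared sites the median difference was -8.96 points on chromosome 10 (Tnfaip3). It was -7.33 on chromosome 19 (Nfkb2 and Rela) and -7.33 on chromosome 5 (Il6 and Cxcl1). Smaller differences were -6.04 on chromosome 7 (Relb), -5.88 on chromosome 11 (Ccl2 and Lif), -4.49 on chromosome 3 (Nfkb1) and -3.35 on chromosome 12 (Nfkbia). Sites lower in both knockout libraries made up 41.3% of shared sites on chromosome 19, 42.9% on chromosome 10 and 30.5% on chromosome 5. The share over all shared sites was 25.5%. Ranked within their chromosome, 5 member sites were lower (25.3% of all) and 1 higher (6.78%). The Nfkb2 start remained among the lower ones, at -8.93 points, and the Pcnx3 end did not. No member site overlapped the authors' deposited differential regions, 189 enriched in knockout and 190 in wild-type cells, which touched 0.491% and 0.493% of all sites. The nearest were wild-type-enriched regions 126.6 kb from Rela and 135.4 kb from Tnfaip3 and a knockout-enriched region 181.2 kb from Cxcl1.

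The rest of the pathway was described by gene-end peaks of 67 other genes. In wild-type libraries 40 and 33 of them had one (42.5% and 34.6% of all genes), and in knockout libraries 25 and 32 (27.6% and 36.3%). A peak in all 4 libraries was found at 22 (26.4% of all genes), and none in any library at 27 (56.6% of all genes). Ligand genes were mostly without a peak, as are most genes, with 12 of 16 having none in any library, among them Tnf, Il1a and Il1b, the classical inducers. Csf1, the macrophage growth factor, was the only ligand with a peak in each library. Of the subunit and inhibitor genes 6 of 10 had a peak in all 4 libraries, namely Rel, Nfkbib, Nfkbie, Tnip2, Cyld and Otulin. Of the adaptors and kinases 8 of 19 did, including Traf2, Map3k14, which encodes the kinase NIK, and Ikbkg, which encodes NEMO. Of the other targets 3 of 10 did, Ptgs2, Sod2 and Stat3. The groups are small, and the share over all genes was 26.4%.

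Receptor genes held 3 of the 4 pathway genes that were called at a gene end in the wild-type pair only, a state found at 1.69% of all genes. These were Lifr, the receptor of LIF, with percentiles of 57.4 and 23.8, Osmr, the oncostatin M receptor, at 69.1 and 60.2, and Tlr3, a sensor of double-stranded RNA, at 23.4 and 10.5. The other was Socs3, a feedback inhibitor of the same cytokine receptors, at 60.4 and 21.7. Lifr and Osmr both lie on chromosome 15, where the median difference over shared sites was -8.79 points. With lists of equal length only Osmr kept this state (1.36% of all genes), and Traf6 and Nfkbiz were called in the knockout pair only (0.466%). In the lists as deposited, a gene-end peak in the knockout pair only was found at 0 of the 67 genes and at 0.0503% of all genes. Among the 10 members, a gene-end peak in 1 genotype only was not found under either list length. A gene-end peak in all 4 lists of equal length was left at 18 of the 67 genes and 5 of the 10 members (24.3% of all genes). Receptor genes with a gene-end peak then numbered 4 in each wild-type library and 4 and 2 in the knockout libraries.

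**Figure D5:**
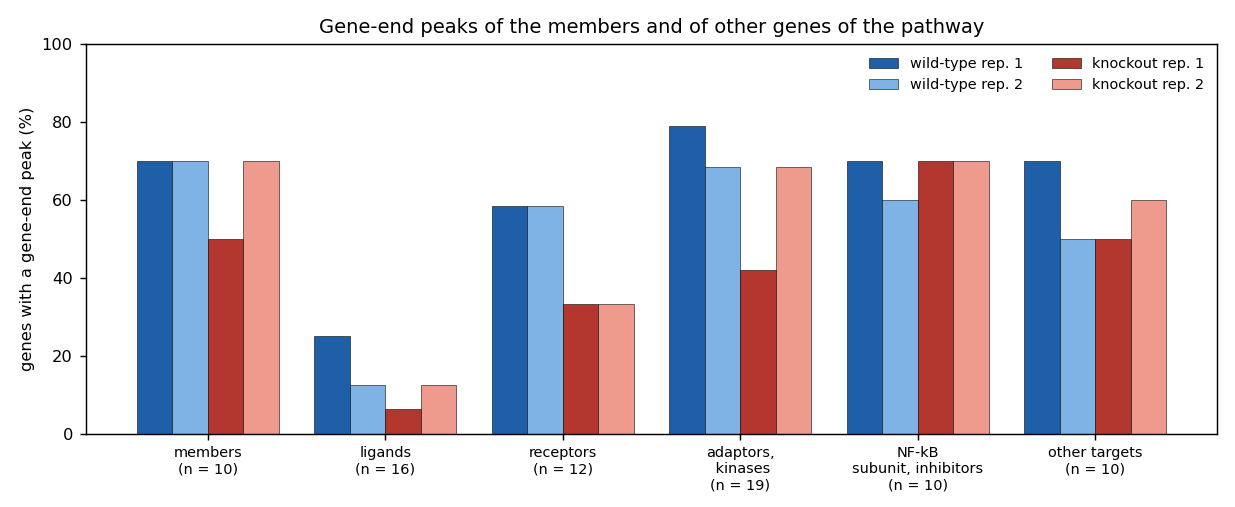
Share of genes with a gene-end peak in each library, in percent, for the 10 members and 5 groups of other pathway genes, with the number of genes under each group. In the lists as deposited, receptors have both knockout bars (4 of 12 genes each) below both wild-type bars (7 of 12 each), which ends with lists of equal length, and ligands are lowest in every library.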

How the data were processed

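Peaks of 4 ATAC-seq libraries, 2 per genotype, were analysed as deposited. Per the submitters' processing notes the build was mm10. They list MACS2, DiffBind 2.2.12, DESeq2, Bowtie2, cutadapt and deepTools without saying what each was used for. The peak names show that the authors called peaks in each library separately. The sources used here do not say whether insertions were shifted for the transposase. The authors' deposited values are a fold (the ratio over local background at the summit), a −log10 p and a −log10 q per peak. The deposited score is the whole part of 10 times the −log10 q for all but 0.0376% of peaks and was not used. The authors' 2 lists of differential regions hold positions only.

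Peaks overlapping by at least 1 bp were joined into sites (pandas 2.3.3, numpy 2.4.6), the strongest peak of a library standing for the site, and ranked by −log10 q within each list. A gene end is a summit within 1 kb of either end of a RefSeq span (GRCm38.p6). Strand and starts came from the RefSeq promoter table, which held 7 of the 10 members. Named were all members with their gene-end sites, the strongest distal site of each, and sites over differential regions. Also named were sites, and pathway genes with a gene-end peak, called in both libraries of 1 genotype and neither of the other. Other sites and genes were named after their values were seen. The members, lists and rules were chosen with earlier results of these data known. The counting was tested on simulated lists. Alternatives changed list length, threshold, joining, window, ranking and libraries.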

Additional observations from a re-analysis of the deposited data

How the results depend on the processing

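Only the deposited peaks could be varied, so depth itself was not. At the threshold of 5 on the −log10 q, and with summits chained within 150 bp, every count stayed within 1.5 times its value. With equal list lengths, sites of the knockout pair only became 2 and sites ranked higher in knockout became 3. The median difference at the 5 gene-end sites in all libraries turned from -5.84 to 7.35 points. Over all shared sites the median moved from -5.67 to -0.674. The gene-end median also turned, to 8.14 points, when ranked over sites in all 4 lists, where 1 site was higher. Over all shared sites the median was then -0.549. Sites ranked higher numbered 2 when ranked by fold and 1 when ranked within the chromosome. The cause was not tested.

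A window of 20 kb left 31 sites, with 10 in all 4 libraries, 1 in wild-type only and 3 lower. A window of 100 kb held 105 sites, with 29, 7 and 9. With gene ends within 500 bp the median difference was -6.73 points.

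Leaving out 1 library at a time, sites in all remaining libraries ranged from 17 to 37 (the latter without knockout replicate 1, 39.0% of all sites), wild-type-only sites from 4 to 24 (21 without wild-type replicate 2, 35.1% of all sites, and 24 without knockout replicate 2, 18.9%) and knockout-only sites from 0 to 2. Sites lower in knockout ranged from 5 to 15 and higher from 0 to 11, both highest without knockout replicate 1 (30.1% and 23.0% of all sites tested). Lower sites numbered 11 without wild-type replicate 2 (68.1%) and 12 without knockout replicate 2 (66.9%). The gene-end median ranged from -24.7 to 4.08 points. It turned positive without wild-type replicate 1 (5 sites) and without knockout replicate 1 (9 sites). Fewer libraries make each of these conditions easier to meet.

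The labels number the replicates 1 and 2 in each genotype without saying that a number marks anything shared. The libraries themselves are numbered 1 and 3 in wild-type and 2 and 3 in knockout. Libraries with replicate number 1 thus do not share a library number, and those with replicate number 2 do. With the replicate number as a block, where knockout had to lie beyond the same-numbered wild-type library in both pairs, 5 sites were lower and 0 higher, as without the block. Deviations of libraries with the same replicate number correlated at -0.162 over all shared sites. With the replicate numbers crossed as the block, added after seeing the data, 8 sites were lower (55.0% of all shared sites) and 2 higher (14.3%).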

Other observations

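Summits of the libraries lay close together at most of the member sites found in all 4 lists. At the 17 sites in all 4 lists the summits of the 4 libraries spanned a median of 11 bp, and 43 bp over all sites in 4 lists. The widest span, 166 bp, was at a gene end. Some sites counted with a member lie at the end of a different gene. Besides those of Clasrp and Pcnx3, sites in all 4 libraries lay at ends of Cuedc2 (2 sites in the window of Nfkb2) and Mthfd2l (in that of Cxcl1). Sites missing in knockout replicate 1 alone lay at ends of Fbxl15, Sipa1 and Clptm1. Of the 11 sites at an end of a different gene, 5 had a peak in all 4 libraries, against 7 of the 48 sites at no gene end. The share over all 39137 sites, at gene ends or not, was 28.0%.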
